A study of Homo sapiens with 12 samples.

Results

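Cancer-testis antigens are proteins whose genes are active in the germ cells of the testis, silent in most other adult tissues, and switched on again in many tumours. The 9 genes described here are PRAME, PAGE1, MAGEC1, MAGEC2, MAGEA1, MAGEA3, MAGEA4, MAGEA6 and MAGEA12, found by gene symbol among the 56609 symbols of the tables. PAGE1, MAGEC1, MAGEA12 and PRAME are in the set because they were higher in TC-71-R than in its parent. The set was thus chosen by measured levels in TC-71-R and TC-71 parental, so the values of that comparison are given for all 9 genes as a description, with no test.

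The study sequenced RNA from 2 human Ewing sarcoma cell lines, TC-71 and A4573, and from their derivatives resistant to YK-4-279. This compound was designed to keep EWS-FLI1, the fusion protein that drives the tumour, from binding RNA helicase A. The 4 groups are TC-71-R, treated with YK-4-279 at a dose the labels write as 400uM, TC-71 parental with the solvent DMSO, A4573-R with YK-4-279 at 650uM, and A4573 parental with DMSO, each with 3 libraries. The unit of these doses is in doubt. Acquired resistance and the presence of YK-4-279 cannot be told apart in either derivative, and a derivative may also be a selected clone, which the labels do not say. Nothing in the labels names the 3 libraries of a group as separate cultures, so p-values rest on a spread between libraries that could be technical.

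Libraries held 43.98 to 62.13 M (1000000) reads on named genes, so that 1 read equals 0.01031 to 0.01481 CPM, counts per 1000000 reads on the authors' scaled library sizes. Libraries of a group correlated across genes with r of 0.9974 to 0.9993. Their reads differed more in the resistant groups. Chi-squared per degree of freedom between 2 libraries was 10.9 to 43.6 there, highest for TC-71-R replicates 2 and 3. It was 2.5 to 7.8 in the parental groups, while the fit used below shares 1 estimate of spread over the 4 groups. Of 10 Ewing sarcoma markers, 9 had a mean of at least 1 CPM in every group, the exception being CD99 at 0 to 0.0123 CPM. CD99 had at most 1 read in a library of any group, and whether its reads were lost in mapping was not tested. Germ cell and meiosis markers were mixed: DAZL, PIWIL1, PRM1, PRM2, TNP1, TNP2 and SPO11 had no read in any library, and DDX4 averaged at most 0.0354 CPM. STAG3 averaged 58.3 and 24.7 CPM and PIWIL2 39.1 and 44.2 CPM in TC-71-R and TC-71 parental. In the A4573 groups STAG3 averaged at most 1.26 CPM and PIWIL2 at most 0.0794 CPM. MEIOB averaged 7.94 to 31.2 CPM over the 4 groups. Of 26 germ cell and meiosis markers, 7, 6, 5 and 4 reached a mean of 1 CPM in TC-71-R, TC-71 parental, A4573-R and A4573 parental. The summed level of that list was 120 to 127 CPM in TC-71-R, 92.6 to 95.6 CPM in TC-71 parental, 37.5 to 40.7 CPM in A4573-R and 24.3 to 25.0 CPM in A4573 parental. Its part in the results below was not tested.

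The MAGE genes encode proteins with a shared MAGE homology domain that bind RING-type E3 ubiquitin ligases and change their targets, for instance MAGEA3, MAGEA6 and MAGEC2 with the ligase TRIM28. PRAME is a leucine-rich repeat protein that serves as a substrate receptor of a CUL2 ubiquitin ligase and represses retinoic acid receptor signalling. PAGE1 belongs to the GAGE and PAGE family of small proteins of unclear function. DNA methylation of the promoter keeps many genes of this class silent in somatic cells, and their peptides, shown on MHC class I, can be seen by T cells.

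PRAME lies on chromosome 22, at chr22:22547701-22559361 on the minus strand (GRCh38, GENCODE release 29). The other 8 are on chromosome X. PAGE1 lies on the short arm at chrX:49687450-49695993, beside the GAGE genes. MAGEC1 at chrX:141903894-141909388 and MAGEC2 at chrX:142202345-142205290 are 293 kb apart and face each other. The MAGEA genes lie near the end of the long arm, MAGEA4 at chrX:151912509-151925170, MAGEA3 at chrX:152698752-152702347, MAGEA12 at chrX:152733779-152737669, MAGEA6 at chrX:152766136-152769747 and MAGEA1 at chrX:153179285-153183880. MAGEA12 sits between MAGEA3 and MAGEA6, 28.5 kb from MAGEA6. MAGEA3 and MAGEA6 are near-identical: 34.9% of the 100-base windows in MAGEA3 exons also occur in MAGEA6, so reads could be split or lost between these 2 genes and their levels are uncertain. MAGEA12 shares 3.54% of its windows with MAGEA2 and MAGEA2B, and the other 6 genes share none with another gene. Exons of PRAME and MAGEA4 overlap antisense genes over 0.503% and 5.58% of their length, where reads cannot be assigned without strand.

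Promoters of 8 of the 9 genes were matched in RefSeq windows on GRCh38.p14, each holding 250 bases before and 50 bases after the start of the gene. The windows below are shown because members with closely related promoters differed in direction in TC-71-R: MAGEA12 and MAGEC1 were higher, while MAGEA3, MAGEA6 and MAGEC2 were lower. All are written 5′ to 3′ along the gene, and capitals mark each 9-base stretch that ends in GGATGTG, a motif chosen after the sequences were seen. MAGEA12 is at chrX:152733507-152733806 (plus strand), MAGEA3 at chrX:152698544-152698843 (plus), MAGEA6 at chrX:152769640-152769939 (minus), MAGEC1 at chrX:141903644-141903943 (plus) and MAGEC2 at chrX:142205241-142205540 (minus).
MAGEA12: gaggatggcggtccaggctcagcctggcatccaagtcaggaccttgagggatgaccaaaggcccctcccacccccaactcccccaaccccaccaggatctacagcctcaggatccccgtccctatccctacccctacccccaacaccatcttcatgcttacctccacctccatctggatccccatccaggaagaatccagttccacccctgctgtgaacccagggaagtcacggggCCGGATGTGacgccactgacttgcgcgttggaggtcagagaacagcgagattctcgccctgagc
MAGEA3 and MAGEA6: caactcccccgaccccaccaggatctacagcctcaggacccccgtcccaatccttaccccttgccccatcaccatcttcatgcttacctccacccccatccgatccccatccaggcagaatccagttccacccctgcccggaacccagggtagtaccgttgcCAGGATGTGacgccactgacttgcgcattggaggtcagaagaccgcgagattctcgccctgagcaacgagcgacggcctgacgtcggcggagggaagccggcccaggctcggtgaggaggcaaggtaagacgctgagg
MAGEC1: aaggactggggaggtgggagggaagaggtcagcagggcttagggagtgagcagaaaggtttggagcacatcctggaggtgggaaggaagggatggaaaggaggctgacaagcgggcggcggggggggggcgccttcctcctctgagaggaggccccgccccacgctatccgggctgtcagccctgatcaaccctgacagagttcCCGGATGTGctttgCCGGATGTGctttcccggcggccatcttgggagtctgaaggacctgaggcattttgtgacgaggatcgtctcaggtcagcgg
MAGEC2: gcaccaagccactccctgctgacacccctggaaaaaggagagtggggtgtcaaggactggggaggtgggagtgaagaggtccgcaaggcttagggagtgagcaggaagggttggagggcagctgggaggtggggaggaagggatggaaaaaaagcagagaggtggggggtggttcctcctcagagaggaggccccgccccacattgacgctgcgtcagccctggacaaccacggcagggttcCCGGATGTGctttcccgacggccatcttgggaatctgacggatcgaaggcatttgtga

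The windows of MAGEA3 and MAGEA6 are the same in 300 of 300 bases, and the window of MAGEA12 matches them in 90.2% of 225 aligned bases. The capitals read CCGGATGTG in MAGEA12, beginning 14 bases before the start, and CAGGATGTG in MAGEA3 and MAGEA6, 88 bases before the start, a difference of C2A counted from the 5′ end of the 9 bases. MAGEC1 and MAGEC2 are identical in 84.7% of 249 aligned bases. MAGEC1 has CCGGATGTG at 46 and 32 bases before its start and MAGEC2 has it beginning 8 bases before its start. MAGEA4 has CCGGATGTG at each of its 5 starts. Whether this motif has a part in the levels was not tested. Searched on both strands, CCGGATGTG occurs in 0.339% of the 35116 promoter windows and CAGGATGTG in 0.470%. The window of MAGEC1 holds CAGGATGTG too, 1 time and on the opposite strand, where capitals do not mark it. CCGGATGTG does not occur in the windows of PAGE1 or PRAME. CG dinucleotides, the bases that DNA methylation marks, number 19 in MAGEA3 and MAGEA6, 14 in MAGEC1, 13 in PAGE1, 10 in MAGEC2 and 9 in this MAGEA12 window, against a median of 14 over all windows. A second MAGEA12 start, not shown, has 15 in its window and CCGGATGTG 119 bases before it, so both values depend on the start chosen. The 3 PRAME starts have 13, 12 and 4, and the 5 MAGEA4 starts 10 to 15. These counts are descriptions of sequence, and methylation was not measured here.

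PAGE1 showed the largest difference among the 9 genes on the log2 scale, while in the ratio of means MAGEC2, at very low levels, differed more. PAGE1 had 100.9, 97.42 and 99.46 CPM in the 3 TC-71-R libraries, against 4.520, 4.589 and 4.169 CPM in TC-71 parental. Its mean was 22.4-fold higher in TC-71-R, a difference of 4.21 on the log2(CPM + 1) scale on which all log2 differences here are given. The groups were far apart, and the libraries within each lay close together.

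MAGEC1, a MAGE protein with a long repeat region found in myeloma and other tumours, had 34.56, 35.01 and 32.30 CPM in TC-71-R, against 1.849, 2.149 and 1.885 CPM in TC-71 parental. This is a 17.3-fold higher mean (log2 difference 3.56). MAGEA12, the gene that sits between MAGEA3 and MAGEA6, had 25.96, 23.42 and 29.09 CPM in TC-71-R, against 4.389, 4.552 and 4.613 CPM in TC-71 parental, a 5.79-fold higher mean (2.29). PRAME, the ubiquitin ligase adaptor, had 65.42, 67.46 and 63.82 CPM in TC-71-R, against 11.32, 12.11 and 12.13 CPM in TC-71 parental, a 5.53-fold higher mean (2.37). MAGEA1, the founding member of the family, had 48.50, 42.25 and 51.40 CPM in TC-71-R and 33.52, 36.04 and 36.67 CPM in TC-71 parental, a mean only 1.34-fold higher (0.41). In these 4 genes too every TC-71-R library was above every parental library.

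The remaining 4 genes were lower in TC-71-R. MAGEC2, which binds TRIM28, had 0.0740, 0.0393 and 0.0103 CPM in TC-71-R, against 1.264, 0.942 and 1.231 CPM in TC-71 parental. That is 9 reads in all TC-71-R libraries together and a 27.8-fold lower mean (log2 difference -1.04). MAGEA6, near-identical to MAGEA3, had 0.903, 0.629 and 0.619 CPM in TC-71-R, against 2.850, 3.031 and 2.949 CPM in TC-71 parental, a 4.10-fold lower mean (-1.20). MAGEA3 had 0.903, 0.774 and 0.629 CPM in TC-71-R, against 2.922, 2.584 and 2.750 CPM in TC-71 parental, a 3.58-fold lower mean (-1.09). MAGEA4 had no read in TC-71-R, against 0.0835, 0.109 and 0.122 CPM in TC-71 parental, at least 2.74-fold lower at a floor of 3 reads per library. MAGEA4 was close to the limit of detection in every group.

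**Figure D1:**
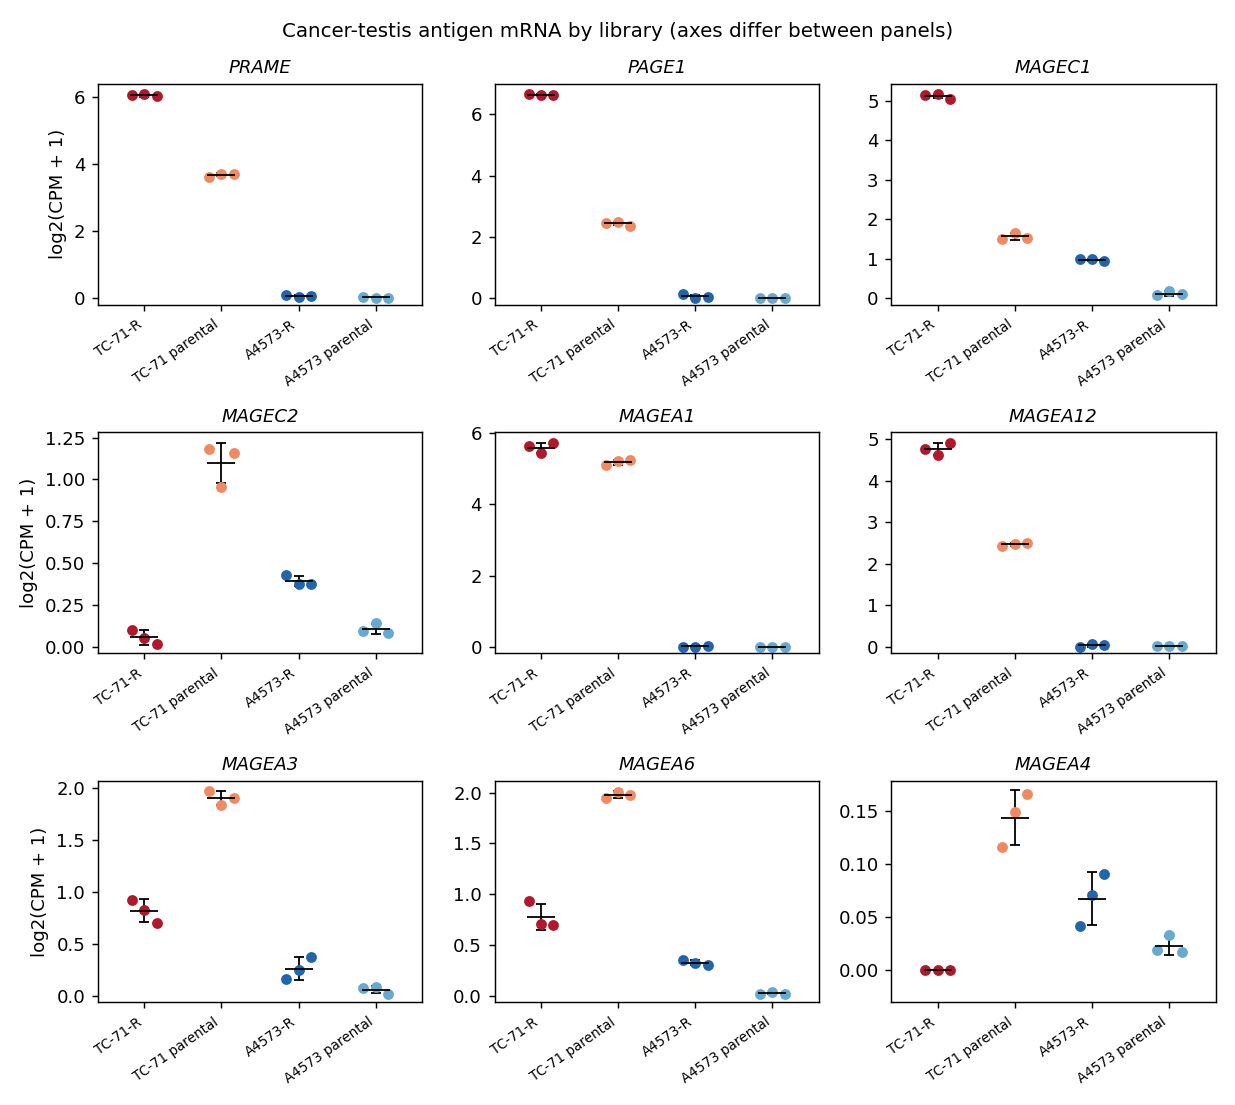
Level of the 9 genes in each library, as log2(CPM + 1), with a panel per gene and its own vertical axis. Coloured points are the 3 libraries of a group, and black lines are the group mean with its SD. PAGE1, MAGEC1, MAGEA12, PRAME and MAGEA1 are highest in TC-71-R, while MAGEC2, MAGEA3, MAGEA6 and MAGEA4 are highest in TC-71 parental.

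The 9 genes therefore divided into 5 that were higher and 4 that were lower in TC-71-R, with no overlap of libraries in any of them. Among all 14335 tested genes, 40.2% were higher and 40.9% lower without overlap (81.1% in either direction), so the absence of overlap by itself was common in this comparison. Of the 9 genes, 7 passed the filter of at least 1 CPM in at least 3 libraries, and MAGEC2 and MAGEA4 did not. A log2 difference of at least 1 was seen in 6 of these 7, 4 higher and 2 lower, against 10.3% of all tested genes (4.53% higher and 5.82% lower). Since this comparison chose the genes, nothing is read from these counts.

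The make-up of the set differed between the 2 groups. Summed over the 9 genes, the level was 274 ± 5.94 CPM in TC-71-R and 65.1 ± 2.09 CPM in TC-71 parental (SD, n = 3). Not adjusted for gene length, PAGE1 made up 36.3% of that sum in TC-71-R, against 6.81% in TC-71 parental. MAGEA1 made up 17.3% in TC-71-R, against 54.4% in TC-71 parental. MAGEA3 and MAGEA6 made up 0.281% and 0.262% in TC-71-R, against 4.23% and 4.52% in TC-71 parental.

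Divided by exon length, so that genes can be compared with each other, the order in TC-71-R was led by PAGE1 at 149 CPM per kb. MAGEA1 at 27.7, PRAME at 17.4, MAGEA12 at 13.5 and MAGEC1 at 7.95 CPM per kb followed, and neighbours in this order did not overlap between libraries. MAGEA3 at 0.430 and MAGEA6 at 0.385 CPM per kb overlapped each other, and below them came MAGEC2 at 0.0207 CPM per kb. In TC-71 parental the order was led by MAGEA1 at 20.7 CPM per kb, before PAGE1 at 6.66, PRAME at 3.14 and MAGEA12 at 2.33 CPM per kb. There MAGEA6 at 1.58 and MAGEA3 at 1.54 CPM per kb overlapped, as did MAGEC2 at 0.575 and MAGEC1 at 0.459 CPM per kb. MAGEC1 thus ranked under MAGEC2 in TC-71 parental and above it in TC-71-R.

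The second derivative, A4573-R, was compared with A4573 parental with limma, a comparison that did not choose the genes. All 9 genes were near or below 1 CPM in each of these libraries, with sums over the set of 1.90 ± 0.0455 CPM in A4573-R and 0.264 ± 0.0868 CPM in A4573 parental (SD, n = 3). MAGEC1 had 0.998, 0.975 and 0.918 CPM in A4573-R, against 0.0531, 0.128 and 0.0723 CPM in A4573 parental. It rose 11.4-fold in the ratio of means (log2 difference 0.86, SE 0.055, limma adjusted p = 1.7e-09). MAGEC1 was the highest of the 9 genes per kb in A4573-R, at 0.226 CPM per kb.

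MAGEA6 had 0.2748, 0.2499 and 0.2326 CPM in A4573-R, against 0.0133, 0.0233 and 0.0120 CPM in A4573 parental, which hold 4 reads in all. It rose 15.6-fold (log2 difference 0.30, SE 0.058, limma adjusted p = 0.00026), and the ratio of reads has a counting interval of 5.68 to 58.3 (95%, exact). MAGEA3 had 0.116, 0.187 and 0.297 CPM in A4573-R, against 0.0531, 0.0582 and 0.0120 CPM in A4573 parental, a 4.87-fold rise (0.20, SE 0.066, limma adjusted p = 0.013). Without A4573-R replicate 3, MAGEA3 did not pass (0.14, limma adjusted p = 0.068). The groups did not overlap in these 3 genes, nor in PAGE1, MAGEC2 and MAGEA4: 6 of the 9 genes were higher in every A4573-R library, against 39.7% of tested genes higher, 35% lower and 74.6% either way. These shares cover tested genes only, and MAGEC2 and MAGEA4 are not among them.

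PRAME, MAGEA1 and MAGEA12 stayed at 0 to 0.0579 CPM in the A4573-R and A4573 parental libraries, and their groups overlapped, with limma adjusted p of 0.54, 0.87 and 0.75. PAGE1 had 6, 1 and 2 reads in the A4573-R libraries (0.0868, 0.0125 and 0.0258 CPM) and none in A4573 parental. It did not pass with limma (log2 difference 0.06, adjusted p = 0.30), but passed on the recovered reads with edgeR (adjusted p = 0.003) and DESeq2 (adjusted p = 0.002). MAGEC2 and MAGEA4 were outside the filter. In the fit with no filter, MAGEC2, with 0.347, 0.300 and 0.297 CPM in A4573-R against 0.0664, 0.105 and 0.0602 CPM in A4573 parental, was 0.29 higher on the log2 scale (SE 0.052, limma adjusted p = 0.00085). In the same fit MAGEA4, with 11 reads in A4573-R and 4 in A4573 parental, was 0.04 higher (limma adjusted p = 0.029). Its ratio of reads has a counting interval of 0.878 to 12.8, which includes no difference, and A4573-R replicate 1 and A4573 parental replicate 2 each held 2 reads.

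Of the 7 tested genes, 3 rose and none fell in A4573-R, where 38.3% of all tested genes rose and 34.1% fell (72.5% in all). The median log2 difference was 0.06 over the 7 genes and 0.02 over all tested genes. The 7 passed the filter through their level in TC-71, so that most of them had little signal to compare here. MAGEC2, MAGEA3, MAGEA4 and MAGEA6 thus stood lower in TC-71-R and higher in A4573-R than in their parents, in CPM without overlap of libraries, though for MAGEA4 the rise in A4573-R is within counting error. That difference between the lines was not tested, since the first comparison chose the genes.

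**Figure D2:**
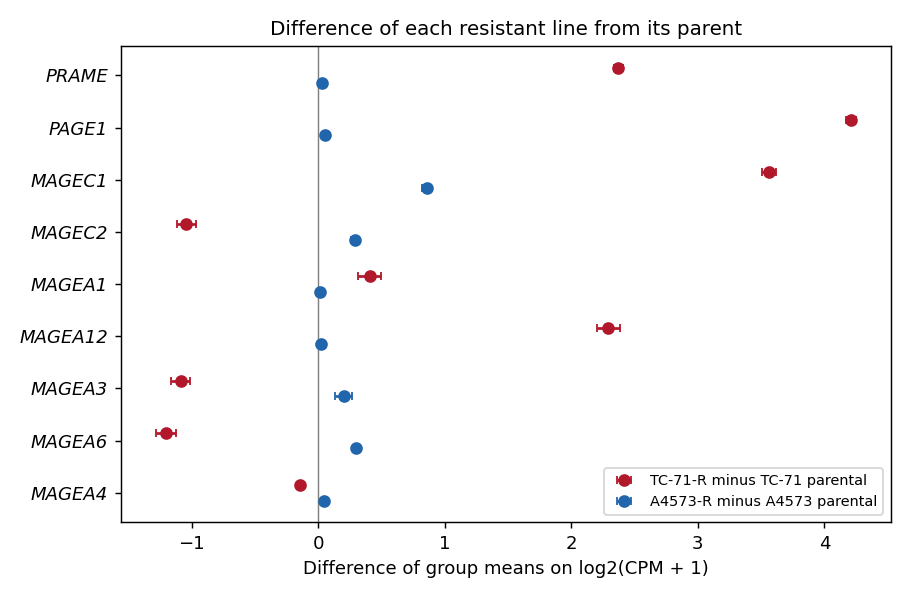
Difference of each resistant line from its parent for the 9 genes, on the log2(CPM + 1) scale. Points are differences of means of 3 libraries and bars their standard errors from the libraries of the 2 groups. In TC-71-R the differences run from -1.20 for MAGEA6 to 4.21 for PAGE1, while in A4573-R the highest is 0.86 for MAGEC1.

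The parental lines themselves differed in every gene of the set. All 9 genes were higher in TC-71 parental than in A4573 parental without overlap, as were 47.1% of tested genes, with 45.4% lower and 92.5% either way. MAGEC2 and MAGEA4 are among the 9 but not among the tested genes. All 7 tested genes of the set passed with limma, where 45.9% of tested genes were higher and 44.1% lower (89.9% in all). The genes entered the filter through TC-71, and the TC-71 parental libraries took part in their choice, so these counts and the values that follow describe the set and are no support. MAGEA1 was at least 958-fold higher in TC-71 parental, since A4573 parental had no read (log2 difference 5.19). PAGE1, also without a read in A4573 parental, was at least 120-fold higher (log2 difference 2.44). PRAME had 4 reads in A4573 parental, and its ratio of means was 708 (log2 difference 3.66). Its ratio of reads was 724, with a counting interval of 282 to 2659.

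MAGEA12 had a ratio of means of 367 with 3 reads in A4573 parental (log2 difference 2.45), and MAGEA6 a ratio of means of 182 (log2 difference 1.96). Their ratios of reads were 368 (counting interval 126 to 1787) and 180 (69.9 to 661). MAGEA3 was 66.9-fold higher in TC-71 parental (log2 difference 1.85). MAGEC1 had the smallest difference of the 7, 23.2-fold (1.45). Outside the filter, MAGEC2 was 14.9-fold and MAGEA4 6.46-fold higher in TC-71 parental. This comparison and that of TC-71-R share the TC-71 parental libraries. For PRAME, PAGE1, MAGEC1, MAGEA1 and MAGEA12 the levels ran from TC-71-R, the highest, over TC-71 parental to the A4573 groups. The 2 A4573 groups overlapped for PRAME, MAGEA1 and MAGEA12.

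Across the 12 libraries, which hold only 4 groups, the 9 genes followed each other to different degrees. PRAME and MAGEA12 had a Pearson r of 0.995 with each other on the log2 scale, and PAGE1 had 0.987 with MAGEA12 and 0.977 with MAGEC1. MAGEC2 had 0.935 with MAGEA4 and 0.851 with MAGEA6, but -0.255 with its neighbour MAGEC1. MAGEA3 and MAGEA6, which share exon sequence, had 0.993. MAGEA1 had 0.960 with PRAME, 0.804 with MAGEA3, 0.775 with MAGEA6 and 0.768 with MAGEC1, and MAGEA3 had 0.614 with PRAME. These are descriptions over libraries that share line and treatment.

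Among 7084 tested genes whose group means span at least 1 on the log2 scale, the closest to PRAME was DSCR4 (r = 0.9993), with 1.31 CPM in TC-71-R, 0.634 CPM in TC-71 parental and no read in the A4573 groups. The closest to PAGE1 was CRIP2 (0.9993), to MAGEC1 FBXO8 (0.999), to MAGEC2 FRY (0.9938), and to MAGEA1 PRSS21 (0.9998). PRSS21, the testis serine protease testisin, had 38.8 CPM in TC-71-R, 31.0 CPM in TC-71 parental and no read in the A4573 groups. For MAGEA3 it was the pseudogene RPLP0P2 (0.9948), with MAGEA6 in the third place (0.9928). For MAGEA6 it was ADAM17 (0.9962), and for MAGEA12 FMO2 (0.9986). The next in likeness were GALNT14 and AC079062.1 for PRAME, EIF3L and ANKRD18DP for PAGE1, GMPR2 and TRPM4 for MAGEC1, and P2RX7 and RIMS2 for MAGEC2. They were CCSER1 and CDS1 for MAGEA1, GATM for MAGEA3, MTX2 and PRKG2 for MAGEA6, and ADRA1B and APOC1 for MAGEA12.

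The nearest tested neighbours of the 9 genes included 3 other cancer-testis genes, whose own levels were not used to choose the 9 genes. CSAG1 starts 0.044 kb from MAGEA12 and is transcribed away from it. CSAG1 had 19.47, 19.52 and 17.52 CPM in TC-71-R, against 4.055, 4.057 and 4.092 CPM in TC-71 parental (log2 difference 1.97, SE 0.050, limma adjusted p = 2.6e-14). The start windows of CSAG1 and MAGEA12 overlap. MAGEA12 was chosen by its rise in this same comparison, so the p-value of CSAG1 in TC-71-R is a description and no support. The CCGGATGTG counted for CSAG1 is the same stretch as that of MAGEA12, read from the opposite strand, and no second site. In A4573-R CSAG1 had 5, 4 and 6 reads, against 1, 0 and 0 in A4573 parental, which did not pass with limma (adjusted p = 0.13) and did with edgeR (adjusted p = 0.00041) and DESeq2 (adjusted p = 0.0027).

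GAGE1, of the GAGE family, lies 78.9 kb from PAGE1. GAGE1 had 3.969, 3.094 and 3.866 CPM in TC-71-R, against 0.179, 0.205 and 0.155 CPM in TC-71 parental, a 20.3-fold rise (log2 difference 1.97, SE 0.062, limma adjusted p = 2.6e-13). It had no read in A4573-R or A4573 parental. GAGE1 shares 11.3% of its windows with other GAGE genes, so its level is uncertain. CSAG2, 5.91 kb from MAGEA3, had 1.955, 2.636 and 2.052 CPM in TC-71-R, against 0.322, 0.302 and 0.244 CPM in TC-71 parental (1.31, SE 0.064, adjusted p = 4.2e-11). CSAG2 rose although MAGEA3 beside it was lower, but 88.0% of its windows occur in another CSAG gene, so its reads may come from CSAG3. GAGE1 and CSAG2 passed the filter only through their level in TC-71-R, so their p-values are descriptions and no support.

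With no read of GAGE1 or CSAG2 and at most 6 reads of CSAG1 in an A4573-R or A4573 parental library, the changes of these 3 genes could not be compared between the lines. A difference between the change in TC-71-R and that in A4573-R passed with limma in 78.1% of all tested genes, and in 16.5% with a size of at least 1.

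Among the neighbours that are no cancer-testis genes, some rose and some fell. GABRE, a GABA receptor subunit 28.0 kb from MAGEA4, rose in TC-71-R (23.8 against 5.74 CPM in TC-71 parental, log2 difference 1.87, limma adjusted p = 1.1e-11) and fell in A4573-R (4.75 against 13.1 CPM in A4573 parental, -1.30, adjusted p = 1.4e-09). CETN2, a centrin 57.2 kb from MAGEA6, rose in TC-71-R (14.6 against 7.45 CPM, 0.89, adjusted p = 7.4e-11). USP27X, 184 kb on the other side of PAGE1, was not called in TC-71-R (24.3 against 23.0 CPM, 0.08, adjusted p = 0.16). LDOC1 before MAGEC1 and PNMA6A before MAGEA1 were not called in TC-71-R either, at -0.02 (adjusted p = 0.79) and 0.02 (adjusted p = 0.75). ZNF275, 150 kb beyond MAGEA1, fell in TC-71-R (-0.62, adjusted p = 2.3e-09).

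**Figure D3:**
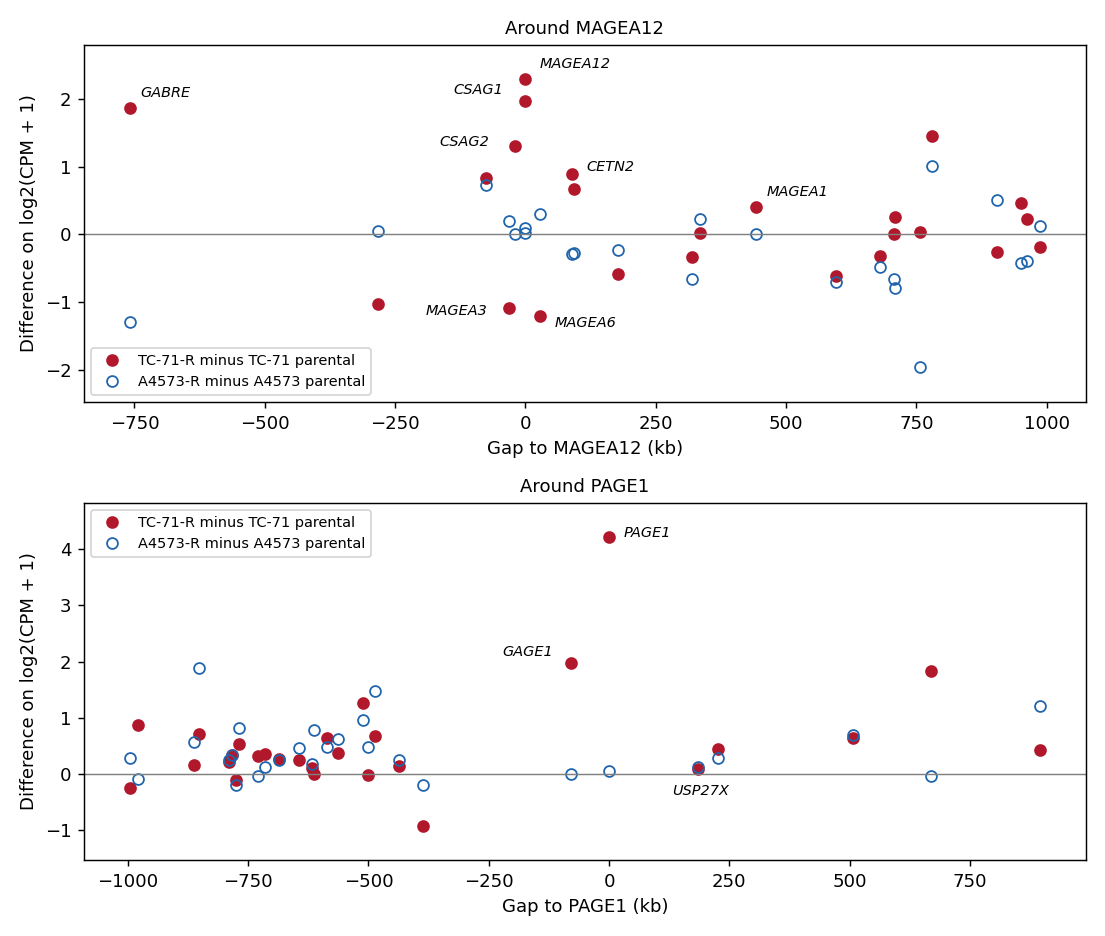
Log2 difference of each tested protein-coding gene within 1 Mb of MAGEA12 (top) and PAGE1 (bottom), against its gap to that gene in kb. Filled points are TC-71-R minus TC-71 parental and open points A4573-R minus A4573 parental. CSAG1 at 1.97 stands beside MAGEA12 at 2.29, between MAGEA3 at -1.09 and MAGEA6 at -1.20, and GAGE1 at 1.97 is the nearest tested gene to PAGE1 at 4.21.

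Outside the 9 genes, most X-linked cancer-testis genes were too low to test: 6 of 98 in the tables passed the filter. In TC-71-R 3 of the 6 rose (GAGE1, CSAG1 and CSAG2), none fell and 3 did not pass, where 38.8% of all tested genes rose and 39.6% fell (78.5% in all). GAGE1 and CSAG2 passed the filter only through their level in TC-71-R, so this count is a description and no support. SAGE1 was not called, with 40.09, 47.20 and 37.65 CPM in TC-71-R and 38.69, 38.56 and 38.68 CPM in TC-71 parental (0.10, adjusted p = 0.18). Without TC-71-R replicate 3 it passed (0.17, limma adjusted p = 0.027). XAGE1A and XAGE1B did not pass (limma adjusted p of 0.053 and 0.12). XAGE1A did pass under several other settings, among them edgeR (adjusted p = 0.034), DESeq2 (adjusted p = 0.045) and a limma fit of the TC-71 groups alone (adjusted p = 0.00092). Since every window of XAGE1A occurs in XAGE1B, their reads are uncertain. None of the 6 was called in A4573-R in the analysis given. XAGE1A passed there with limma without A4573-R replicate 1 (adjusted p = 0.00042) or without A4573 parental replicate 2 (adjusted p = 0.045), and CSAG1 under the settings named above.

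Of 94 other autosomal cancer-testis genes, 42 were tested and 22 rose and 14 fell in TC-71-R, beside 38.8% and 39.6% of all tested genes, with a median of 0.11 against -0.003 over all tested genes. In A4573-R 20 rose and 11 fell, beside 38.3% and 34.1%, with a median of 0.14 against 0.02. Those that rose at least 2-fold in TC-71-R included CTNNA2, an alpha-catenin, with 4.04 ± 0.316 CPM in TC-71-R and 0.00800 ± 0.00693 CPM in TC-71 parental (2.32, adjusted p = 3.7e-15), and IGSF11, a cell adhesion protein, with 4.44 ± 0.122 and 1.56 ± 0.118 CPM in TC-71-R and TC-71 parental (1.09, adjusted p = 1.1e-11; SD, n = 3). CTNNA2 passed the filter only through its level in TC-71-R, so its p-value and its place among the 22 are no support. TTK, NUF2, PBK, KIF2C and CEP55, which act in mitosis, rose by 1.64, 1.78, 1.59, 1.32 and 1.15 in TC-71-R and by 0.45 to 0.71 in A4573-R. KIF20B, a mitotic kinesin, rose by 0.87 in TC-71-R and fell by 0.98 in A4573-R. RBM46, a germ cell RNA-binding protein, rose by 0.84 in TC-71-R (23.7 against 12.8 CPM in TC-71 parental), and DSCR8, which overlaps exons of KCNJ15 over 125 bases, by 0.51. SYCP1, of the synaptonemal complex, fell in TC-71-R (3.03 against 10.7 CPM, -1.54, adjusted p = 6.0e-12).

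The contrast between the parental lines was as wide for several of these genes as for the 9. CTCFL, the testis paralogue of the insulator protein CTCF, known to bind promoters of MAGE genes, had 217.3, 220.3 and 217.7 CPM in TC-71 parental, against 0.306, 0.326 and 0.410 CPM in A4573 parental (629-fold, log2 difference 7.35, limma adjusted p = 5.4e-22). In TC-71-R CTCFL was not called (204.3, 202.8 and 214.0 CPM, -0.08, limma adjusted p = 0.12, and 0.035 in a fit of the TC-71 groups alone). In A4573-R it rose to 1.244, 1.062 and 1.163 CPM (0.68, adjusted p = 1.9e-09). SAGE1 was at least 1045-fold higher in TC-71 parental, where A4573 parental had no read. PIWIL2, of the piRNA pathway, had 44.2 CPM in TC-71 parental, against 0.0561 CPM in A4573 parental, and LY6K had 31.5 CPM, against 0.00402 CPM. Exons of LY6K overlap the antisense gene LNCOC1 over 71.0% of their length, so its reads are uncertain. Even so, of the 42 autosomal genes 15 were higher and 22 lower in TC-71 parental (45.9% and 44.1% of all tested genes), with a median of -0.43.

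**Figure D4:**
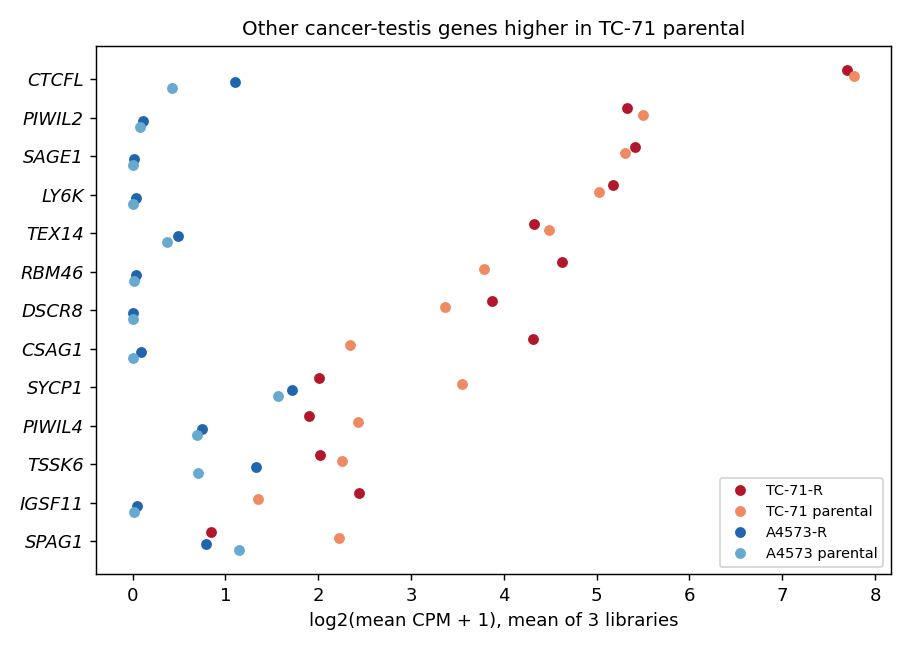
Mean level of the 13 other cancer-testis genes that were at least 1 higher on the log2 scale in TC-71 parental than in A4573 parental, as log2(mean CPM + 1) of 3 libraries. Colours are the 4 groups. SAGE1, LY6K, PIWIL2 and RBM46 lie at or near 0 in the A4573 groups, CSAG1 at 18.8 CPM in TC-71-R lies above its 4.07 CPM in TC-71 parental, and SYCP1 lies below its parent.

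Of 7 tested type II MAGE genes, which share the MAGE domain but are active in many adult tissues, 4 rose and 2 fell in TC-71-R, where 78.5% of all tested genes passed. MAGED2 had 211 ± 5.55 CPM in TC-71-R and 120 ± 1.62 CPM in TC-71 parental (log2 difference 0.81, limma adjusted p = 7.3e-12). TRO had 74.0 ± 3.66 CPM in TC-71-R and 42.5 ± 1.96 CPM in TC-71 parental (0.79, adjusted p = 1.3e-10; SD, n = 3). In A4573-R 4 of the 7 rose and none fell (38.3% and 34.1% of all tested genes), among them MAGED2 by 0.37 and MAGEH1 by 1.00.

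Of 31 tested genes of the silencing machinery for germline genes, 10 rose, 13 fell and 8 did not pass in TC-71-R, with a median of -0.03, where 78.5% of all tested genes passed. The DNA methyltransferases DNMT1 and DNMT3A were higher in TC-71-R, DNMT1 at 143 ± 3.30 CPM against 111 ± 2.12 CPM in TC-71 parental (0.37, adjusted p = 3.2e-08) and DNMT3A at 86.1 ± 3.31 CPM against 55.5 ± 0.554 CPM (0.62, adjusted p = 6.6e-10). UHRF1 and HELLS, which help to maintain methylation, rose by 0.54 and 0.72, while DNMT3B fell by 0.23. In A4573-R 7 rose and 13 fell, against 38.3% and 34.1% of all tested genes. There DNMT1, UHRF1 and HELLS fell by 0.26, 0.32 and 0.44, and DNMT3B rose by 0.55.

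Of 15 tested partners of the MAGE proteins and PRAME, 8 rose and 5 fell in TC-71-R, and 5 rose and 6 fell in A4573-R, while 78.5% and 72.5% of all tested genes passed in these comparisons. Elongin C, encoded by ELOC and part of the CUL2 ligase that takes PRAME, rose in TC-71-R (41.4 against 25.6 CPM in TC-71 parental, 0.67, adjusted p = 1.2e-07). PRKAA2, one form of the catalytic subunit of AMPK, fell in TC-71-R (0.132 against 0.888 CPM, -0.73, adjusted p = 1.0e-07). Of 16 tested genes of retinoic acid receptors and metabolism, the pathway that PRAME represses, 1 rose, 9 fell and 6 did not pass in TC-71-R, with a median of -0.23, where 38.8% of all tested genes rose and 39.6% fell. ALDH1A3, which makes retinoic acid, fell to 0.234 ± 0.0694 CPM in TC-71-R, against 2.02 ± 0.0746 CPM in TC-71 parental (-1.29, adjusted p = 7.9e-12). STRA6 and DHRS3 fell by 0.98 and 0.91. In A4573-R 4 of the 16 rose and 11 fell, with a median of -0.17, where 38.3% of all tested genes rose and 34.1% fell. PRAME was at most 0.0579 CPM there, and a link between PRAME and these genes was not tested in either line.

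Of 13 tested genes of MHC class I presentation, 8 rose, 2 fell and 3 did not pass in TC-71-R, with a median of 0.39, beside 38.8% risen and 39.6% fallen among all tested genes. NLRC5, the transactivator of MHC class I genes, had 2.75 ± 0.306 CPM in TC-71-R and 0.591 ± 0.0216 CPM in TC-71 parental (1.24, adjusted p = 6.5e-11). NLRC5 passed the filter only through its level in TC-71-R, so its p-value and its place among the 8 are no support. TAP1, a subunit of the peptide transporter, had 8.61 ± 0.648 CPM in TC-71-R and 4.29 ± 0.206 CPM in TC-71 parental (0.86, adjusted p = 3.2e-08; SD, n = 3). ERAP1 was lower, with 2.30 ± 0.415 CPM in TC-71-R and 4.26 ± 0.118 CPM in TC-71 parental (SD, n = 3). In A4573-R 3 rose and 5 fell, beside 38.3% risen and 34.1% fallen. Reads of HLA genes depend on how far the alleles of a line match the reference, which was not tested.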

How the data were processed

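RNA was sequenced in 12 libraries with a TruSeq RNA kit and paired 100-base reads, per the labels' protocols. Strand and polyA selection are not given in the sources used here. The authors handled reads with STAR 2.4, Trimmomatic, HTSeq and edgeR on GRCh38, per the submitters' processing notes. The deposited values are a signal per gene, CPM on scaled library sizes: every value is a whole multiple, within 0.001, of 1 read (100% of values), so reads were recovered as counts. Unnamed entries hold 30.6% to 42.0% of reads and were left out.

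The 14335 genes that reached 1 CPM in 3 or more of the 12 libraries were fitted as log2(CPM + 1) with limma 3.58.1 in R 4.3.3, with a variance trend and 4 group means. P-values are Benjamini-Hochberg adjusted over these genes, with a threshold of 0.05. This scale understates changes of low genes, so ratios of mean CPM stand beside it. Positions, exon lengths and shared 100-base windows come from GENCODE 29. Intervals and floors (3 reads per library) cover counting error only. Alternatives were edgeR 4.0.16 and DESeq2 1.42.0 on the recovered reads, another pseudocount, other filters, TMM, each comparison alone, the replicate number as a block, and leaving out each library. The fit was tested on simulated data.

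The 9 genes and the gene lists were chosen with earlier results of these data known. Named besides the 9 genes are other cancer-testis genes of at least 1 CPM in a group, the most changed genes of each list, the nearest tested neighbours, and the 3 genes closest by Pearson r. Some of these are only counted. Besides the lists in the report, 7 melanocyte markers were checked: TYR and SOX10 had no read and MLANA averaged at most 0.0542 CPM. PMEL averaged 9.53 CPM in A4573-R and 0.447 CPM in A4573 parental, and 0.728 and 0.722 CPM in TC-71-R and TC-71 parental. MITF averaged 6.21, 6.45, 2.22 and 2.59 CPM in TC-71-R, TC-71 parental, A4573-R and A4573 parental, and DCT at most 0.650 CPM. Their part in the results was not tested.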

Additional observations from a re-analysis of the deposited data

Results flagged for a closer look

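The change in TC-71-R and the change in A4573-R ran in opposite directions, without overlap of libraries, for MAGEC2 (difference of the log2 changes -1.33), MAGEA3 (-1.29), MAGEA4 (-0.19) and MAGEA6 (-1.50). These differences were not tested, because the change in TC-71-R chose the genes. In MAGEA4 it rests on at most 11 reads in a library, and the rise in A4573-R is within counting error.

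For other cancer-testis genes the difference between the 2 changes was tested in limma as an interaction. Those with a size of at least 1 past the threshold were CTNNA2 (2.32), LIPI (2.14), GAGE1 (1.97), CSAG1 (1.88), KIF20B (1.84), CSAG2 (1.31), TTK (1.19), NUF2 (1.14), PBK (1.09) and IGSF11 (1.06), with a more positive change in TC-71-R. The change was more negative in TC-71-R for ANKRD45 (-2.07), SYCP1 (-1.68), NOL4 (-1.19) and SPAG1 (-1.01). GAGE1, CSAG2 and CSAG1 had no read or at most 6 reads in an A4573-R or A4573 parental library, and CTNNA2 and IGSF11 were near or at 0 there, so for these genes the value restates the change in TC-71-R. ANKRD45 shares 35.7% of its exon length with another gene, so its reads are uncertain, and it passed the filter only through its level in A4573-R. LIPI, a lipase gene known from Ewing sarcoma, rose in TC-71-R (24.2 against 11.6 CPM in TC-71 parental) and fell in A4573-R (12.4 against 28.4 CPM in A4573 parental).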

How the results depend on the processing

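With no filter on low values, 5 of the 9 genes were called in A4573-R against A4573 parental (3 in the analysis given), and 1 was called where some group had to average 5 CPM or more; these settings change how many of the 9 are tested. The count of other cancer-testis genes called with no filter was 59 in TC-71-R (39 in the analysis given) and 70 between the parental lines (43), and 28 between the parental lines where some group had to average 5 CPM or more. No result reversed under any setting. Leaving out each library in turn gave 2 to 3 genes called in A4573-R, 7 between the parental lines, and 6 with a log2 difference of at least 1 in TC-71-R. For other cancer-testis genes it gave 36 to 41 in TC-71-R, 29 to 34 in A4573-R and 43 to 44 between the parental lines.

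With the replicate number as a block, the counts were 3 of the 9 genes in A4573-R, 7 between the parental lines and 6 in TC-71-R. Libraries of the same number did not deviate together (r of -0.097 to 0.026), so the numbers give no pairing. Per gene, 122 values lost and 57 gained a call under some setting. Genes below about 3 reads per library could not be compared at this depth.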
